A study of Homo sapiens with 12 samples.

Results

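Cytosolic ribosomal protein genes were examined in HMEC-1 cells, an established endothelial line from the small vessels of human skin, after transfection of microRNA mimics. The members were all gene symbols of the table built like RPL5, RPS4X or RPS27L, together with RPLP0, RPLP1, RPLP2 and RPSA, and numbered 85 of 36433 symbols. Levels are given in TPM, transcript abundance per length scaled so that each library sums to 1000000, and were summed per symbol. The cells had received a mimic, a synthetic RNA that stands in for the mature microRNA, of miR-126, of miR-143 or of miR-150, and control cells a scrambled RNA, each at 50 nM with Lipofectamine RNAiMAX. They were grown in EBM-2 medium with its EGM-2 supplements and collected 48 h later. Each of the 4 groups had 3 libraries, numbered 2, 3 and 4, and all carried the same line and the same transfection reagent. The labels do not say which strand of each microRNA the mimics carried. Nor do they say that libraries of 1 group were grown separately, so the error behind each p-value is that between libraries, possibly technical. RPL10L was listed at 0 TPM in all 12 libraries, and RPL3L lay between 0.218 and 0.693 TPM. The other 83 passed a filter of 1 TPM in 3 or more libraries, which 13750 genes met, and were tested with limma on the log2(TPM + 1) scale, with p-values adjusted over all of these genes.

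Cytosolic ribosomes consist of a small subunit, which decodes the mRNA, and a large subunit, which forms peptide bonds, and each subunit holds ribosomal RNA and one copy of most of its proteins. Cells make these proteins in matched amounts, largely by controlling translation of their mRNAs, most of which begin with a terminal oligopyrimidine (TOP) tract, an unbroken run of C and T bases at the first transcribed position that ties their translation to mTOR through the binding protein LARP1. Several members have paralogs with other expression patterns, and loss of 1 copy of some members causes Diamond-Blackfan anaemia.

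The TOP tract was read from RefSeq promoter sequences (GRCh38.p14), which held a start for 67 of the 83 tested members. Of these, 47 (70.1%) began with a C in a run of at least 5 C or T bases, against 7.52% of 9976 tested genes and 5.14% of 27305 genes with a RefSeq start. The lines below span 30 bases around the annotated start of some members that the results turn on, with the C and T run at the start in capitals.
RPL18: accccagcccgttctCTCTTTCCggacctg
RPL14: gggcgggtcttcttcCTTCTCgcctaacgc
RPL21: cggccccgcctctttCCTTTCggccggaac
RPSA: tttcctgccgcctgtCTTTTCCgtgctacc
RPS27: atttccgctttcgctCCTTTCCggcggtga
RPS27L: aagttgatgccgagcgcagatcgcttgcag
RPL36A: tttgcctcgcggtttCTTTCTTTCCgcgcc
RPL36AL: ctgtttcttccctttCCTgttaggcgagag
RPL7L1: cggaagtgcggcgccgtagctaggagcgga
The windows lie at chr19:48619164-48619193 (minus strand) for RPL18, chr3:40457324-40457353 (plus) for RPL14, chr13:27251543-27251572 (plus) for RPL21, chr3:39406705-39406734 (plus) for RPSA and chr1:153990747-153990776 (plus) for RPS27. Those of the others lie at chr15:63157463-63157492 (minus) for RPS27L, chrX:101390996-101391025 (plus) for RPL36A, chr14:49620612-49620641 (minus) for RPL36AL and chr6:42879601-42879630 (plus) for RPL7L1. The run held 8 bases in RPL18, 6 in RPL14 and in RPL21, 7 in RPSA and in RPS27, and 10 in RPL36A. The paralogs varied: RPL36AL had a run of 3 bases, and RPS27L and RPL7L1 had none at the annotated start. Of those not shown, RPL26L1 had none, but RPL22L1 had a run of 6 bases. Lack of a run was not limited to paralogs, since RPL4 and RPL9, also not shown, had none.

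RefSeq also held the guide strands usual for 2 of the microRNAs, shown because their seeds (bases 2 to 8, in capitals) define the sites that could occur in the members.
hsa-miR-126-3p: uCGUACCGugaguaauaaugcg
hsa-miR-143-3p: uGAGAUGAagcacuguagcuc
The first is encoded at chr9:136670653-136670674 and the second at chr5:149428978-149428998, both on the plus strand (GRCh38.p14). The word that pairs with the miR-126 seed, CGGTACG, occurred in 0 of the 83 members' 3′ UTRs, read from the most abundant transcript that has one, and in 0.191% of 12538 tested genes. The word for miR-143, TCATCTC, occurred in 1 of 83, RPL37 of the large subunit, and in 10.4% of the tested genes. The 3′ UTRs of the members had a median of 53 bases, against 818 bases in the other tested genes. RPL37 had 1980.1, 2391 and 2642 TPM with miR-143, against 2309, 2291 and 2072 TPM with scrambled RNA, and the groups overlapped (log2 fold change 0.06 ± 0.14 SE, adjusted p = 0.862, limma).

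Before the comparisons, some libraries need description. The members' transcripts are short, with a median of 619 bases against 2136 bases in the other tested genes, and the libraries numbered 4 of miR-143 and of miR-150 favoured short transcripts. Across genes, the Spearman correlation between a gene's deviation in a library and its transcript length was -0.40 and -0.55 in these 2 libraries, and lay between -0.01 and 0.29 in the other 10. Some results below are also given without them. The correlations within the family and the counts of groups that do not overlap are given only with them, and may change. The markers of endothelial cells were present, with 15 of 15 at a mean of 1 TPM or more, and CD3E, LYZ and MS4A1 of leukocytes and CDH1, KRT5 and KRT14 of epithelium lay under 1 TPM in every library. The summed TPM of 6 leukocyte markers, led by CD68 and CD14, spanned 50.6 to 69.8 with miR-126, 42.3 to 62.1 with miR-143 and 27.4 to 59.0 with miR-150, against 29.5 to 48.6 with scrambled RNA, so that miR-126 did not overlap with it. The summed TPM of 6 epithelial markers, led by KRT18 and KRT8, spanned 524 to 579 with miR-126, 729.8 to 952 with miR-143 and 900.025 to 1024 with miR-150, against 446 to 634 with scrambled RNA. That of 4 lymphatic endothelial markers spanned 83.7 to 84.8, 62.7 to 83.4 and 84.4 to 111 with these mimics, against 137 to 147 with scrambled RNA, and that of 11 fibroblast and pericyte markers (7 at 1 TPM or more; DCN, LUM and PDGFRA under it throughout) 89.99 to 118, 66.4 to 82.1 and 46.0 to 84.1, against 108 to 142. The part of these markers in the results for any mimic was not tested.

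The members together held 15.5%, 14.1% and 16.3% of all TPM with miR-126 (libraries 2, 3 and 4), 13.5%, 14.4% and 17.0% with miR-143, and 17.9%, 16.1% and 24.0% with miR-150, against 16.7%, 15.2% and 15.6% with scrambled RNA. The shares overlapped between each mimic and scrambled RNA. Library 4 of miR-150 was the highest of all 12. In means, this was 15.3 ± 1.13% with miR-126, 14.95 ± 1.80% with miR-143 and 19.3 ± 4.15% with miR-150, against 15.8 ± 0.755% with scrambled RNA (SD, n = 3 each). The ratio of large to small subunit genes kept between 1.57 and 1.64 in every library. TPM are shares of a library, so a higher share of one family lowers all other genes, and more of these mRNAs per cell cannot be told apart from less of the others.

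**Figure D1:**
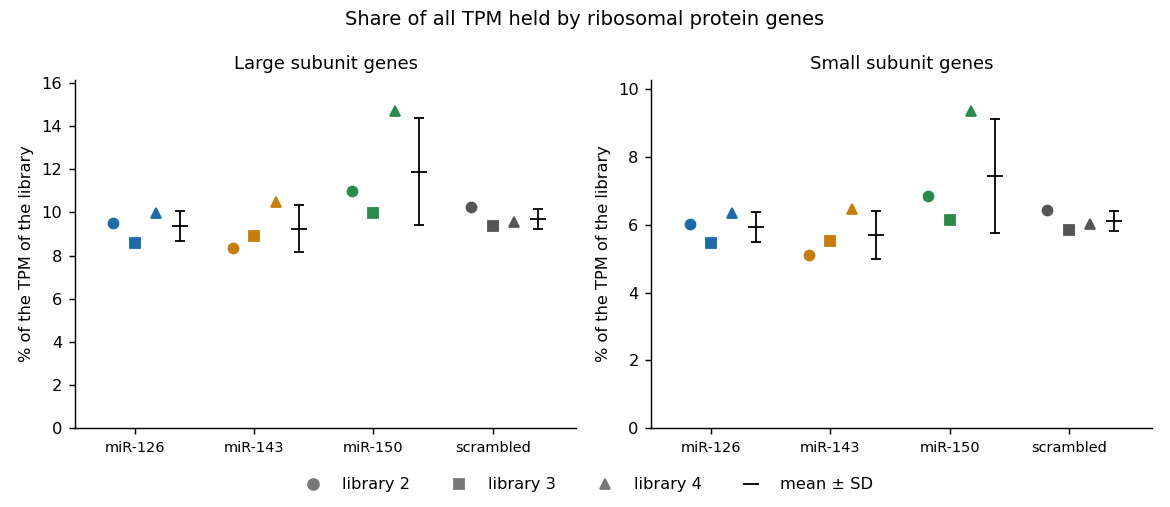
Share of all TPM (percent, y axis) held by large subunit genes (left) and small subunit genes (right) in each library, by group; points are libraries 2, 3 and 4, and the bars show mean ± SD. Library 4 of miR-150 stands highest in both panels, at 14.7% and 9.34%.

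Within the family, levels varied together over the 12 libraries. The median correlation of a member with the mean of the others was 0.93 over 12 libraries that share their totals, and 69 of 83 exceeded 0.8. Of the 14 that did not, 6 were paralogs, which held the lowest values: RPL7L1 had -0.84, RPS27L -0.40, RPL39L 0.04, RPL36AL 0.18, RPL22L1 0.47 and RPL26L1 0.55. RPL18, a large subunit protein mutated in some families with Diamond-Blackfan anaemia, had 0.58. These correlations include the libraries numbered 4 of miR-143 and miR-150, which favoured short transcripts. RPL7L1, the longest member at a weighted mean of 3739 bases, had its lowest levels there, at 81.0 and 57.9 TPM.

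The highest mean levels per length belonged to RPL41, a peptide of the large subunit, at 4666 TPM, RPL4 at 3821 TPM, RPS18 at 3669.7 TPM, RPS24 at 3524 TPM and RPS3 at 3498 TPM. The lowest among tested members belonged to RPL39L at 57.7 TPM, RPL7L1 at 99.4 TPM, RPL26L1 at 102 TPM, RPL22L1 at 107 TPM and RPS27L at 232 TPM, all paralogs of another member. The median of the mean levels was 2101 TPM for 51 large subunit genes and 1915 TPM for 32 small subunit genes. RPS9, a small subunit protein, was listed at a mean of 324 TPM, but 6 further symbols held transcripts with values identical to those of RPS9 in all 12 libraries, and the sum with them was 1260.0 TPM. Its level was thus split between copies. For the family at large, 94 tested ribosomal protein pseudogenes could share reads with their parent genes, and 19 members had an exon overlapped by a gene on the opposite strand at a mean of 1 TPM or more, which reads without a stated strand cannot separate.

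In the comparison with scrambled RNA, RPL18 was the only member past an adjusted p of 0.05 in the fit without a replicate term, and it rose with each mimic. It had 1472, 1474 and 1542 TPM with miR-126, 1310.5, 1568 and 1772 TPM with miR-143, and 1682, 1636 and 2434 TPM with miR-150, against 988, 1058 and 906 TPM with scrambled RNA. Every mimic library lay above every scrambled library. The 3 comparisons share these scrambled libraries, so they are not independent of each other. The log2 fold change was 0.61 ± 0.15 with miR-126 (adjusted p = 0.0448), 0.65 ± 0.15 with miR-143 (adjusted p = 0.0446) and 0.94 ± 0.15 with miR-150 (SE, adjusted p = 0.0073, limma). Thus 1 of 83 members was called higher and 0 lower in each comparison, where 3.37% of all tested genes were higher and 1.73% lower with miR-126, 1.84% and 1.48% with miR-143, and 1.08% and 2.23% with miR-150. At an unadjusted p under 0.05, 6, 5 and 21 of the 83 members passed in the 3 comparisons, against 19.4%, 16.8% and 17.4% of all genes.

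RPL18 also stood out relative to its own family, a scale on which the abundance of ribosomal protein mRNAs as a whole cancels. It made up 0.95%, 1.05% and 0.95% of the members' TPM with miR-126, 0.97%, 1.09% and 1.05% with miR-143, and 0.94%, 1.01% and 1.01% with miR-150, against 0.59%, 0.69% and 0.58% with scrambled RNA. With each library rescaled to the summed TPM of the members, its log2 fold changes were 0.66 (adjusted p = 0.0083), 0.73 (adjusted p = 0.0049) and 0.67 (adjusted p = 0.0071) for miR-126, miR-143 and miR-150. It was then the 1 member called higher, with 0 lower, against 0.502% of all genes higher and 0.211% lower with miR-126, 0.429% and 0.0945% with miR-143, and 0.102% and 0.836% with miR-150. Without the libraries numbered 4 of miR-143 and miR-150 it passed with each mimic as well, at 0.61 (adjusted p = 0.0030), 0.55 (adjusted p = 0.0138) and 0.76 (adjusted p = 0.0033). The rise was that of the main protein-coding transcript of 612 bases, which held between 91.3% and 94.4% of the symbol's TPM in every library. The gene lies on chromosome 19 (48615328 to 48619536, minus strand, GRCh38), its 3′ UTR has 41 bases, and SPHK2, whose exon overlaps it on the opposite strand, averaged 13.2 TPM.

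The direction for RPL18 was higher in all 25 other settings in each comparison, but the call did not hold in all of them. Many of these settings leave the log2 fold change unchanged by design and give no check on its direction. Among them are the replicate term over all 12 libraries, other filters, fitting only the libraries compared, and leaving out a library of another group. They can change only the error and the adjusted p. Leaving out 1 library gave adjusted p between 0.0062 and 0.183 for miR-126 and between 0.0060 and 0.197 for miR-143. For miR-126 the call was lost without any 1 of the miR-126 libraries (0.136, 0.108 and 0.137 without 2, 3 and 4), any 1 of the scrambled libraries (0.137, 0.0733 and 0.183), miR-143 library 3 (0.0634) or miR-150 library 2 (0.0526). For miR-143 it was lost without any 1 of the miR-126 libraries (0.0764, 0.0646 and 0.0738), any 1 of the scrambled libraries (0.147, 0.0781 and 0.197), miR-143 library 3 (0.118) or 4 (0.175), or miR-150 library 2 (0.0537). For miR-150, among the fits without 1 library, it was lost only without scrambled library 4 (0.0523), and the range was 0.0066 to 0.0523. Over all 25 other settings the call held in 13 with miR-126, 11 with miR-143 and 22 with miR-150. The highest adjusted p (limma) among them was 0.378, 0.197 and 0.0913 in the same order.

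**Figure D2:**
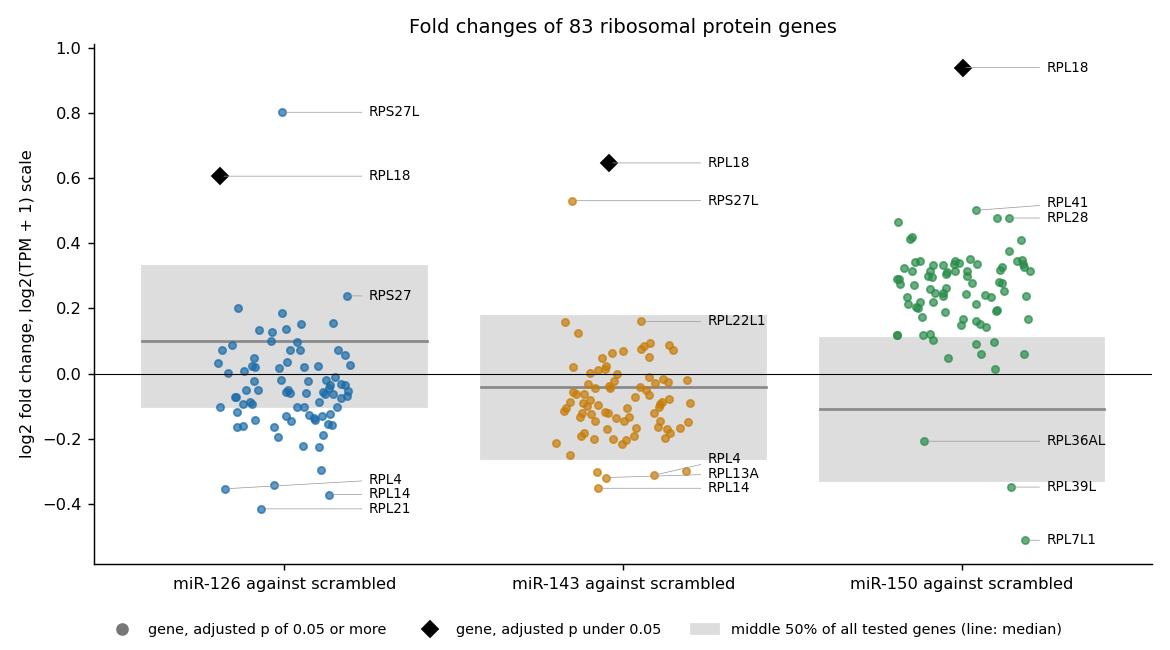
Log2 fold change (y axis, log2(TPM + 1) scale) of each of 83 members for each mimic against scrambled RNA; dots are genes, black diamonds passed an adjusted p of 0.05, and grey boxes span the middle 50% of all tested genes with their median. RPL18 is marked in each column, and 80 of 83 members lie above 0 with miR-150.

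With miR-126, the family's median log2 fold change was -0.05, against 0.10 over all tested genes, and 29 of 83 members (34.9%) lay above 0, against 63.6% of all genes. The sign of the family's median turned under quantile normalization (0.03), and leaving out 1 library brought it as near to 0 as -0.0017 (without miR-126 library 3). In 6 members every miR-126 library exceeded every scrambled library and in 12 (14.5%) every one was lower, against 23.1% and 11.1% of all tested genes. The labels do not say what the replicate numbers mark, but a check on these data took same-numbered libraries of these 2 groups as paired. With the number as a block, in 1 fit over all 12 libraries, 2 members rose and 4 fell, against 11.8% and 5.11% of all genes. Without the libraries numbered 4 of miR-143 and miR-150, which enter this comparison through the shared estimate of the spread, 1 member rose and 4 fell, against 8.81% and 4.54% of all genes.

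The members that fell with miR-126 in the blocked fit were RPL21, RPL14, RPL4 and RPSA. RPL21, a large subunit protein, had 578, 480.4 and 596 TPM with miR-126, against 816, 676 and 714 TPM with scrambled RNA (log2 fold change -0.42 ± 0.12 SE, blocked adjusted p = 0.0367, unblocked 0.158). RPL14 had 1722, 1542 and 1766 TPM with miR-126, against 2305, 1929 and 2286 TPM with scrambled RNA (-0.37 ± 0.08, blocked 0.0098, unblocked 0.129). Both genes were lower in every miR-126 library than in any scrambled library. RPL4 had 3397, 2874 and 3539.8 TPM with miR-126, against 4432, 3917 and 4158 TPM with scrambled RNA (-0.35 ± 0.08, blocked 0.0146, unblocked 0.134). RPSA, which also serves as a laminin receptor at the cell surface, had 1786, 1569.6 and 1843 TPM with miR-126, against 2257, 1960.5 and 2167 TPM with scrambled RNA (-0.30 ± 0.08, blocked 0.0336, unblocked 0.205). The groups did not overlap for these genes either. RPL13A, known for a role in silencing inflammatory mRNAs outside the ribosome, had 2397, 2212 and 2496 TPM with miR-126, against 3189.7, 2789 and 3038 TPM with scrambled RNA, and passed neither fit (-0.34 ± 0.13, blocked 0.0946, unblocked 0.282), but fell without the libraries numbered 4 of miR-143 and miR-150 (adjusted p = 0.0266).

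RPS27L, a p53-inducible paralog of RPS27, rose with miR-126 in the blocked fit (log2 fold change 0.80 ± 0.09 SE, blocked adjusted p = 0.000594, unblocked 0.124). It had 264, 380.0 and 238 TPM with miR-126, against 155, 241 and 119.5 TPM with scrambled RNA. Within each number the miR-126 library was higher, but across numbers the groups overlapped, since library 3 was the highest in each group. RPS27 itself had 2774, 2484 and 2988 TPM with miR-126, against 2407, 2257 and 2307 TPM with scrambled RNA, did not overlap, and did not pass (0.24 ± 0.12, unblocked adjusted p = 0.294).

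With miR-143, the median was -0.09, against -0.04 over all genes. Leaving out 1 library gave -0.18 (without miR-143 library 4) to -0.0151 (without miR-143 library 2) for the family, and -0.04 without scrambled library 2. With all 12 libraries, 19 members (22.9%) lay above 0, against 44.5% of all genes. Every miR-143 library exceeded every scrambled library in 1 member and was lower in 5 (6.02%), against 11.4% and 13.9% of all genes. The lowest values were those of RPL14 (log2 fold change -0.35 ± 0.13, adjusted p = 0.186), RPL13A (-0.32 ± 0.16, adjusted p = 0.366) and RPL4 (-0.31 ± 0.12, adjusted p = 0.228), none of which passed. RPL14 had 1596, 1615 and 1895 TPM with miR-143, below the 2305, 1929 and 2286 TPM of the scrambled libraries. After RPL18, the highest values were those of RPS27L (0.53 ± 0.28, adjusted p = 0.369) and RPL22L1, a paralog of RPL22 (0.16 ± 0.14, adjusted p = 0.640). RPL22L1 had 114, 98.7 and 126 TPM with miR-143, against 98.0, 119 and 86.3 TPM with scrambled RNA, which overlapped. Without the libraries numbered 4 of miR-143 and miR-150, the median was -0.18, and RPL18 rose and RPL13A fell (-0.41, adjusted p = 0.0364), against 2.87% of all genes higher and 2.27% lower.

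With miR-150, 80 of 83 members (96.4%) lay above 0, against 36.8% of all genes, and the median was 0.27, against -0.11 over all genes. In 25 members (30.1%) every miR-150 library exceeded every scrambled library, against 6.87% of all genes, and in 1 it was lower, against 14.6%. Without the libraries numbered 4 of miR-143 and miR-150, the median was 0.09, against 0.02 over all genes, and 64 members lay above 0, with 1 called higher and 0 lower against 2.05% and 2.22% of all genes. With the libraries rescaled to the members' summed TPM, the median was 0.00 by construction and that of all genes -0.34. After RPL18, the highest values were those of RPL41 (log2 fold change 0.50 ± 0.15, adjusted p = 0.0930) and RPL28 (0.48 ± 0.18, adjusted p = 0.204), both of the large subunit. RPL41 had 5074, 5358 and 7598 TPM with miR-150, against 4362, 4164 and 4007 TPM with scrambled RNA. RPL28 had 1619, 1384 and 2446 TPM with miR-150, against 1332, 1232 and 1236 TPM with scrambled RNA. Neither gene overlapped between the groups and neither passed.

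The 3 members below 0 with miR-150 were all paralogs. RPL7L1, a paralog of RPL7, had 85.0, 86.7 and 57.9 TPM with miR-150, against 98.9, 114 and 111 TPM with scrambled RNA (log2 fold change -0.51 ± 0.16, adjusted p = 0.113), and the groups did not overlap. RPL39L, known as a testis-enriched paralog of RPL39, had 44.5, 40.4 and 55.3 TPM with miR-150, against 68.9, 47.7 and 63.3 TPM with scrambled RNA (-0.35 ± 0.18, adjusted p = 0.367). RPL36AL, a paralog of RPL36A, had 285, 331 and 414 TPM with miR-150, against 409, 387 and 380.5 TPM with scrambled RNA (-0.21 ± 0.14, adjusted p = 0.476). The last 2 genes overlapped between the groups.

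**Figure D3:**
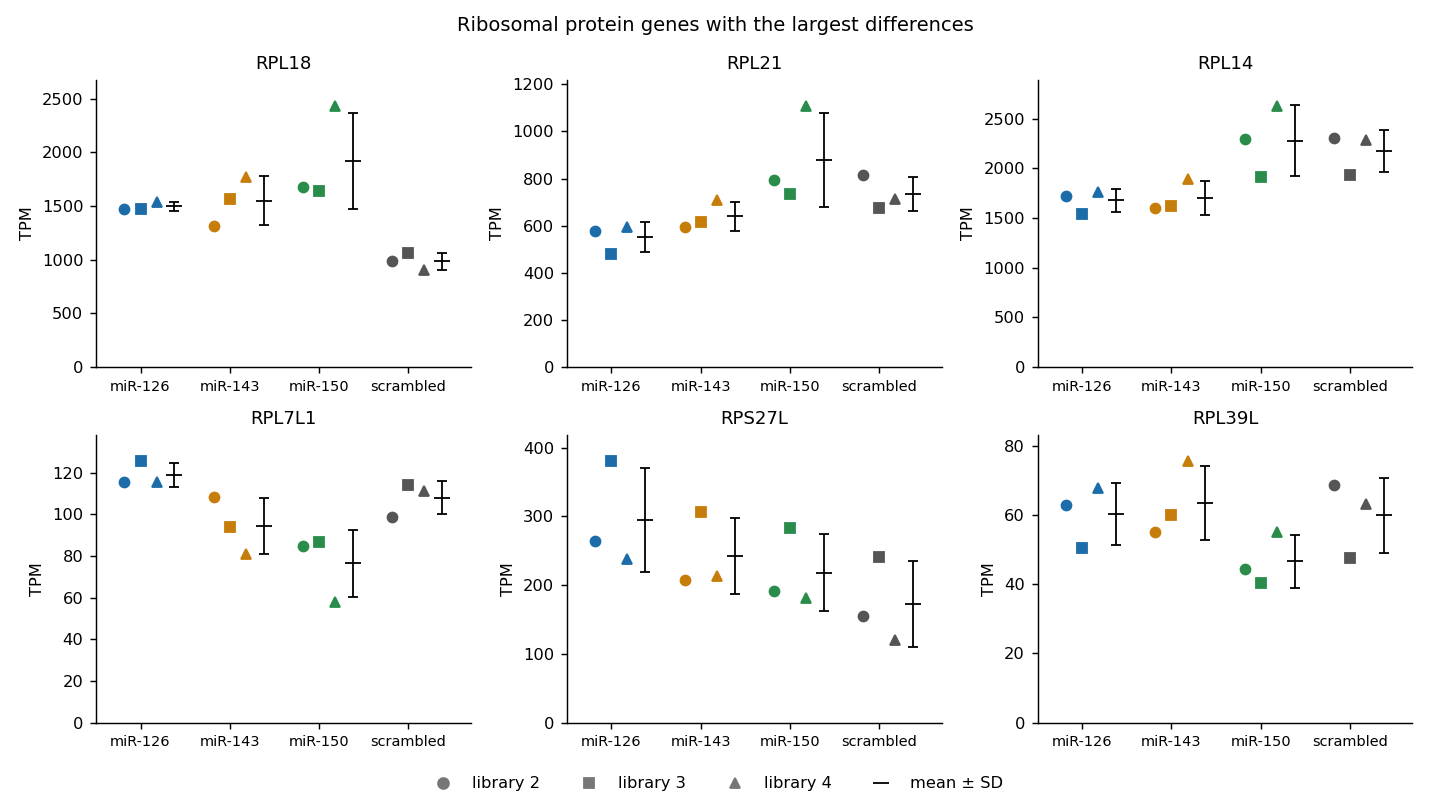
TPM (y axis, from 0) of RPL18, RPL21, RPL14, RPL7L1, RPS27L and RPL39L in each library by group; points are libraries 2, 3 and 4, and the bars show mean ± SD. The 3 scrambled libraries are the lowest for RPL18, the 3 miR-126 libraries lie below the scrambled ones for RPL21, and library 3 is the highest of each group for RPS27L.

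The mimics were also compared with each other. Between miR-126 and miR-150, RPL21 was lower with miR-126 (log2 fold change -0.65 ± 0.15, adjusted p = 0.0413) and RPL7L1 higher (0.65 ± 0.16, adjusted p = 0.0466), so 1 member was called in each direction, against 3.11% of all genes higher and 0.80% lower. RPL21 had 578, 480.4 and 596 TPM with miR-126, against 795, 734 and 1109 TPM with miR-150. RPL7L1 had 115, 125 and 115 TPM with miR-126, against 85.0, 86.7 and 57.9 TPM with miR-150. Neither gene overlapped between these groups. Leaving out 1 library, both passed only without miR-150 library 3 (adjusted p = 0.0241 for RPL21 and 0.0359 for RPL7L1). Without any 1 of the other 11 libraries the values lay between 0.0504 and 0.146 for these genes, and without miR-150 library 4 they were 0.0709 for RPL21 and 0.0786 for RPL7L1.

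Most of the family lay lower with miR-126 than with miR-150, with 4 of 83 members above 0, against 75.1% of all genes. In 35 members (42.2%) every miR-126 library was lower than every miR-150 library, against 4.08% of all genes. With the libraries rescaled to the members' summed TPM the median was 0.03 in place of -0.29. That scale sets the family near 0 by construction and gives no direction for it. Without miR-150 library 4 the median was -0.13 and 0 members passed in limma without the block, against 3.09% of all genes. Without miR-150 library 3 the median was -0.42 and 8 members (9.64%) passed, against 5.21% of all genes. Numbers were taken to pair these libraries by the same check, and with the block 25 members fell and 2 rose (RPS27L and RPL7L1), against 3.06% and 15.8% of all genes. Among those that fell were RPL23 and RPL5, which can bind MDM2 when ribosome assembly is disturbed, with -0.53 ± 0.10 (blocked adjusted p = 0.0091) and -0.49 ± 0.09 (blocked adjusted p = 0.0063), and the stalk protein RPLP0 with -0.36 ± 0.06 (blocked adjusted p = 0.0052). With libraries 4 of miR-143 and miR-150 left out of the blocked fit, 11 fell and 2 rose, against 5% and 12.9% of all genes.

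Between miR-143 and miR-150, 0 members passed in limma without the block (41 at an unadjusted p under 0.05, against 14.2% of all genes), where 1.59% of all genes were higher and 0.604% lower. The median was -0.35, and 0.01 with the libraries rescaled to the members' summed TPM, where it lies near 0 by construction. It was -0.16 without miR-150 library 4. In 22 members (26.5%) every miR-143 library was lower than every miR-150 library, against 4.79% of all genes. With the block, whose numbers were taken to pair these libraries, 22 members fell and 0 rose, against 2.68% and 7.06% of all genes. They included RPLP0 (log2 fold change -0.43 ± 0.06, blocked adjusted p = 0.0033), RPL5 (-0.47 ± 0.09, blocked adjusted p = 0.0107) and RPS6, the substrate of S6 kinase (-0.47 ± 0.10, blocked adjusted p = 0.0166). With libraries 4 of miR-143 and miR-150 left out, 19 fell and 0 rose, against 4.22% and 6.67% of all genes. Between miR-126 and miR-143, 0 members passed with or without the block (1 without it and 3 with it at an unadjusted p under 0.05, against 16% and 28.6% of all genes), where 1.46% of all genes were higher and 1.05% lower without it and 7.57% and 3.45% with it. Every miR-126 library exceeded every miR-143 library in 1 member and was lower in 0, against 19.2% and 6.17% of all genes. The median was 0.02, with members between -0.22 and 0.34. Its sign turned with each library centred on its median gene (-0.16), with the length trend removed (-0.05), and without miR-143 library 2 (-0.0458) or miR-126 library 4 (-0.01). On the members' summed TPM the median was -0.01, near 0 by construction. It was 0.13 without miR-143 library 4.

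Paralogs were set against their partner genes within each library, which removes the library's overall level of ribosomal protein mRNA. RPL36AL stood at 28.0, 30.9 and 28.0 TPM per 100 TPM of RPL36A with miR-150, at 34.0, 40.4 and 36.0 with miR-126 and at 44.3, 45.2 and 44.7 with miR-143, against 41.4, 45.4 and 47.6 with scrambled RNA. The ratios with miR-150 and with miR-126 were below every scrambled library, and those with miR-143 overlapped them. RPL39L stood at 1.64, 1.86 and 1.68 TPM per 100 TPM of RPL39 with miR-150, against 2.69, 1.97 and 2.83 with scrambled RNA, without overlap. RPL7L1 stood at 2.73, 3.16 and 1.48 TPM per 100 TPM of RPL7 with miR-150, against 3.53, 4.61 and 4.33 with scrambled RNA, also without overlap. Its transcripts are longer than those of RPL7 (weighted means of 3739 and 791 bases). The lowest ratio was that of library 4 of miR-150, which favoured short transcripts. A two-sided exact permutation test on the log2 ratios gave p = 0.1 for each of these 4 separations, the smallest that 3 against 3 libraries allow (0.45 after Benjamini-Hochberg adjustment over 18 ratios). The ratios of RPS27L to RPS27, RPL22L1 to RPL22 and RPL26L1 to RPL26 overlapped with scrambled RNA for each mimic. For RPS27L the ratio was 9.53, 15.3 and 7.96 with miR-126 in libraries 2, 3 and 4, against 6.44, 10.7 and 5.18 with scrambled RNA, so that it was higher with miR-126 within each number.

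**Figure D4:**
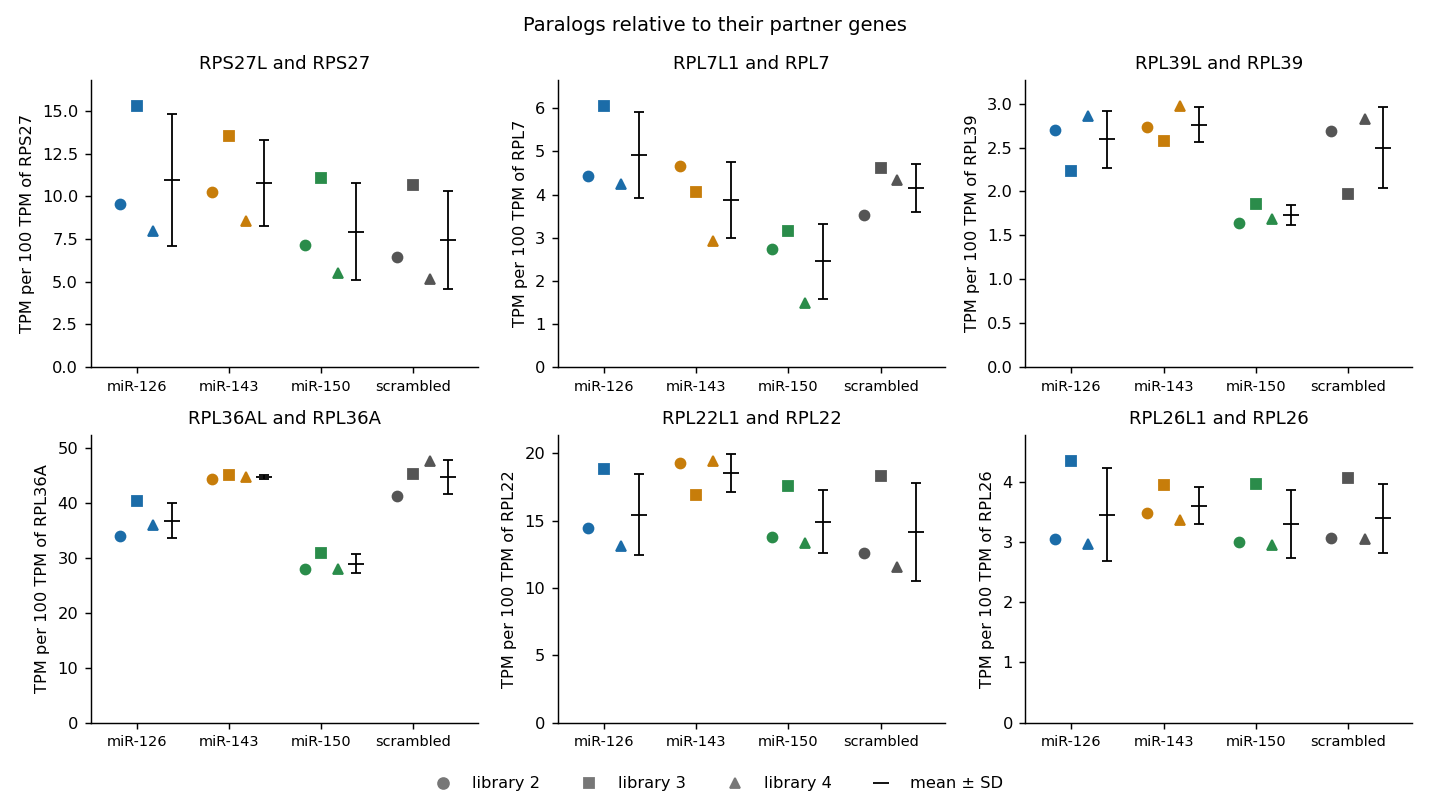
TPM of 6 paralogs per 100 TPM of the partner gene (y axes, from 0) in each library by group; points are libraries 2, 3 and 4, and the bars show mean ± SD. RPL36AL relative to RPL36A is lowest with miR-150, between 28.0 and 30.9, against 41.4 to 47.6 with scrambled RNA.

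With the libraries rescaled to the members' summed TPM, RPL39L and RPL36AL passed between miR-143 and miR-150 (log2 fold change 0.79, adjusted p = 0.0273, and 0.59, adjusted p = 0.0291), and RPL39L passed between miR-126 and miR-150 (0.68, adjusted p = 0.0458). RPL13A, which did not pass on the TPM scale, passed there too, lower with miR-126 than with miR-150 (-0.27, adjusted p = 0.0488). In all, 1 member was higher and 1 lower between miR-126 and miR-150, against 3.33% and 0.109% of all genes, and 2 were higher and 0 lower between miR-143 and miR-150, against 3.25% and 0.0582%. This scaling was added after the data were seen.

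Members known for roles outside the ribosome or in disease were examined next. RPL5 and RPL11, which with 5S RNA bind MDM2, had log2 fold changes of -0.16 ± 0.13 and -0.07 ± 0.12 with miR-126, and 0.33 ± 0.13 and 0.17 ± 0.12 with miR-150. RPS19, the member most often mutated in Diamond-Blackfan anaemia, had 0.03 ± 0.18 with miR-126 and 0.31 ± 0.18 with miR-150. RPS14, lost in the 5q- syndrome, had 0.00 ± 0.15 with miR-126 and 0.34 ± 0.15 with miR-150. The kinase substrate RPS6 had -0.04 ± 0.12 with miR-126 and 0.32 ± 0.12 with miR-150, and RPS3, which also acts in DNA repair, 0.10 ± 0.16 and 0.41 ± 0.16. RPS27A, made as a fusion with ubiquitin, had -0.16 ± 0.16 with miR-126 and 0.24 ± 0.16 with miR-150. RPS25 and RPL38, known for roles in translation from internal entry sites, had -0.22 ± 0.13 and 0.07 ± 0.16 with miR-126, and 0.06 ± 0.13 and 0.33 ± 0.16 with miR-150. RPL10, RPL10A, RPL23 and RPS26 lay between -0.20 and 0.06 with miR-126, and between 0.05 and 0.35 with miR-150. With miR-143, all of these members had values below 0, the lowest being RPS25 at -0.30 ± 0.13 (adjusted p = 0.283). None passed in limma without the block. These directions depend on the scaling. On the members' summed TPM, 2 of these 13 members turned sign with miR-126, 5 with miR-143 and 4 with miR-150, where RPS25 had -0.21. That scale gives each library the same family total, so a shift of the whole family is removed by construction. Of the 20 members linked to Diamond-Blackfan anaemia, RPL18 alone passed with each mimic, and their medians were -0.02 with miR-126, -0.04 with miR-143 and 0.30 with miR-150.

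Library 3 lay below library 2 in 71, 67 and 65 of 83 members with miR-126, miR-150 and scrambled RNA, but in 21 with miR-143. Among other genes with a position, 48.2%, 46.1%, 41.6% and 58.4% lay below, in the same order. The members' median log2 differences were -0.12, -0.14, -0.13 and 0.12. A few members stood further apart in every group. RPS3A of the small subunit had 2076 TPM in library 2 of miR-126, 1097 in library 3 and 2154 in library 4. With scrambled RNA, it had 2314, 1273 and 2067 TPM in libraries 2, 3 and 4. RPL9 of the large subunit had 2028, 1276 and 2130.5 TPM with miR-126, and 2250.0, 1450.1 and 2033 TPM with scrambled RNA. RPL34, also of the large subunit, had 1262, 796 and 1359 TPM with miR-126, and 1142, 754 and 1041 TPM with scrambled RNA. The low value was that of library 3 in each case, and the same held with miR-143 and miR-150. Over the 4 groups, the mean log2 difference of library 3 from library 2 was -0.79 for RPS3A, -0.63 for RPL9, -0.61 for RPL34 and -0.43 for RPL3, the 4 lowest of 83 members.

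These 4 genes lie on 2 chromosomes. RPS3A, RPL9 and RPL34 are the 3 members on chromosome 4, and RPL3 is the only one on chromosome 22. Other tested genes of chromosome 4 (469 genes) had median differences of -0.45, -0.58 and -0.37 with miR-126, miR-143 and miR-150, and -0.33 with scrambled RNA. Those of chromosome 22 (323 genes) had -0.43, -0.46 and -0.47 with the mimics in the same order, and -0.36 with scrambled RNA. The median over 13563 other genes with a position was 0.01, -0.07 and 0.03 with the mimics, and 0.07 with scrambled RNA. Chromosome 9 lay the other way, at 0.19, 0.11 and 0.18 with the mimics, and 0.26 with scrambled RNA. It holds RPL35 and RPL12, which were among the 3 highest members with mean differences of 0.30 and 0.20. Its other members, RPS6 and RPL7A, had 0.07 and 0.08, and lay below 0 with miR-126 (-0.05 and -0.01). Library 4 minus library 2 had a median on chromosome 4 of -0.06, -0.33 and -0.46 with miR-126, miR-143 and miR-150, and 0.04 with scrambled RNA. Over all chromosomes the medians were -0.06, -0.21 and -0.34 with the mimics, and 0.01 with scrambled RNA. The cause of these differences was not tested. The members with the largest spread over 12 libraries (SD of log2 values) were RPS3A (0.50), RPS27L (0.45), RPL34 (0.43), RPL9 (0.42) and RPL18 (0.40), against a median of 0.23 and the lowest values of 0.16 to 0.17 for RPL26L1, RPL30, RPL19, RPL11 and RPL32. RPS27L, on chromosome 15, had the highest mean difference between libraries 3 and 2, at 0.57.

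**Figure D5:**
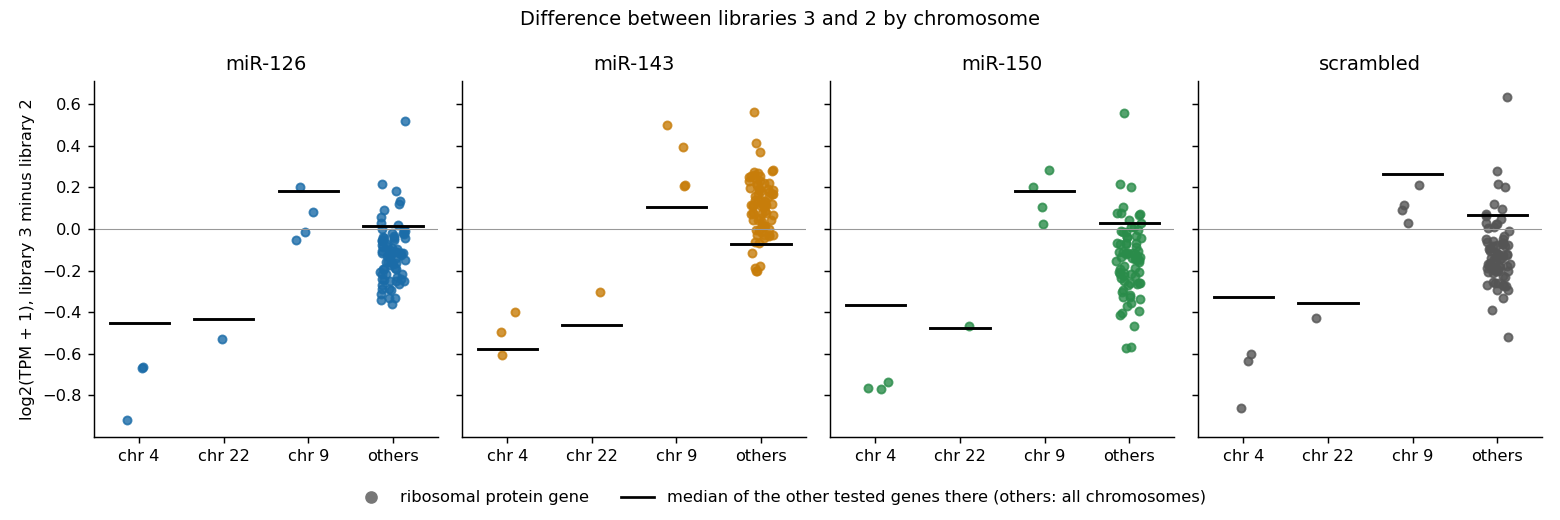
Difference in log2(TPM + 1) between library 3 and library 2 (y axis) in each group; dots are ribosomal protein genes on chromosomes 4, 22, 9 and all others, and black lines are medians of the other tested genes of that chromosome, or of all chromosomes in the last column. The 3 members of chromosome 4 lie between -0.92 and -0.40 in every group.

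At the level of transcripts, 38 of 83 members had over 90% of their TPM in 1 transcript, and for 72 members the main transcript was annotated as protein-coding. RPL14 was assigned mainly to a transcript annotated as a retained intron (794 bases) and RPS24 mainly to one annotated as a processed transcript (539 bases). RPL9 had 17.6%, 15.7% and 17.95% of its TPM in its 662-base protein-coding transcript with miR-126, and 20.0%, 19.9% and 17.2% with miR-143, against 26.0%, 26.1% and 24.4% with scrambled RNA. All shares of these mimics lay below the scrambled ones. With miR-150 the shares were 17.2%, 9.78% and 34.7%, which overlapped with scrambled RNA. RPL7L1 had 57.2%, 52.3% and 50.8% in its 4476-base transcript with miR-126, and 48.0%, 56.5% and 41.4% with miR-150, against 62.7%, 64.5% and 67.7% with scrambled RNA. Both mimics lay below every scrambled library there. RPL29 had 70.1%, 73.3% and 75.4% in its 723-base transcript with miR-126, against 63.3%, 66.5% and 60.2% with scrambled RNA. Of 169 transcripts with a mean share of at least 5%, the shares did not overlap with scrambled RNA for 39 (23.1%) with miR-126, 29 (17.2%) with miR-143 and 30 (17.8%) with miR-150, against 15.2%, 11.5% and 10.6% of 43124 such transcripts of all tested genes.

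FAU and RACK1, small subunit genes whose symbols the rule does not match, had log2 fold changes of -0.09 ± 0.18 and 0.08 ± 0.10 with miR-126, -0.03 ± 0.18 and 0.02 ± 0.10 with miR-143, and 0.19 ± 0.18 and 0.20 ± 0.10 with miR-150, and neither passed. Of 94 tested pseudogenes, 0 passed in limma in any of these comparisons. Among 79 mitochondrial ribosomal protein genes, 3 (3.80%) rose with miR-126, with 0 lower, where 3.37% of all genes rose. With miR-143, 4 rose and 1 fell (5.06% and 1.27%, against 1.84% and 1.48% of all genes), and with miR-150, 3 rose and 2 fell (3.80% and 2.53%, against 1.08% and 2.23%). MRPS35 (log2 fold change 1.11 ± 0.14, 1.32 ± 0.14 and 1.31 ± 0.14 with miR-126, miR-143 and miR-150), MRPS24 (1.09 ± 0.18, 1.26 ± 0.18 and 1.24 ± 0.18) and MRPL18 (0.52 ± 0.10, 0.55 ± 0.10 and 0.47 ± 0.10) passed in each comparison, all of which share the scrambled libraries.

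The calls in the lists below stand against those of all tested genes. Of these, 3.37% rose and 1.73% fell with miR-126, 1.84% and 1.48% with miR-143, and 1.08% and 2.23% with miR-150. No list was tested as a set. Of 20 other TOP mRNAs, PABPC1, the cytoplasmic poly(A)-binding protein, fell with miR-126 (-0.43 ± 0.09, limma adjusted p = 0.0181). EIF4B, an initiation factor, fell with miR-150 (-0.89 ± 0.17, adjusted p = 0.0183). With miR-143 0 of these TOP mRNAs passed, and medians were -0.12, -0.18 and 0.04 with miR-126, miR-143 and miR-150. Of 64 ribosome biogenesis genes, WDR12, needed for large subunit maturation, rose with each mimic (0.85 ± 0.14, 0.69 ± 0.14 and 0.80 ± 0.14), and NOP14 rose with miR-126. UTP18, GNL3 and NOB1 fell with miR-143 (-0.98 ± 0.14, -0.56 ± 0.13 and -0.70 ± 0.10) and MRTO4 with miR-150. Among 26 regulators of ribosomal protein mRNAs, CNBP, which binds TOP tracts, rose with each mimic (0.43 ± 0.07, 0.58 ± 0.07 and 0.53 ± 0.07), and AKT1S1, a component of mTOR complex 1, fell with miR-126 (-0.49 ± 0.10). Of 14 RNA polymerase I genes, ZNRD1 rose with miR-126 and miR-143, and of 15 chaperones and importers, HGH1 rose with miR-150.

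The gene outside the family whose log2 values followed the mean of the members most closely over the 12 libraries was ZNHIT2 (Pearson correlation 0.95, mean level 4.76 TPM). The next 4 symbols carried the transcripts identical to those of RPS9.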

How the data were processed

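Human HMEC-1 libraries, 3 for each of 4 groups, were quantified by the authors with kallisto on hg38 (GRCh38), and FastQC and sleuth were also used, per the submitters' processing notes, which give no versions. The deposited table holds TPM for 187626 transcripts, with 0 columns of other samples. TPM keep no depth, so the depth per library is unknown, no counting interval could be given, and TPM needed limma in place of the count model planned. TPM were summed per symbol. Genes reaching 1 TPM in 3 or more libraries (13750) entered the test on log2(TPM + 1) with limma 3.58.1 in R 4.3.3, 1 fit over all 12 libraries, with moderated variances and Benjamini-Hochberg adjustment over all genes tested in each comparison, at a threshold of 0.05. All adjusted p-values are from limma. The script was tested on simulated data for miR-126 against scrambled RNA. It called 59 of 100 genes shifted by log2 1 and 14 of 100 shifted by log2 0.5, with 9 false calls. A member that did not pass is therefore not shown to be unchanged.

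Replicate numbers come from the labels, which do not say what they mark. Same-numbered libraries were taken as paired where every correlation of their deviations from the group means exceeded 0.1: miR-126 with scrambled (0.289, 0.634 and 0.401 for numbers 2, 3 and 4), miR-126 with miR-143 (0.321, 0.664 and 0.365), miR-126 with miR-150 (0.291, 0.547 and 0.284) and miR-143 with miR-150 (0.586, 0.634 and 0.737). They were not for miR-143 with scrambled (0.044, 0.65 and 0.174) and miR-150 with scrambled (0.073, 0.604 and 0.075). The block nevertheless entered 1 fit over all 12 libraries, including groups not taken as paired. The check used the same values that the blocked fit tests, so it is not independent of that fit. For miR-126 with scrambled, 5 of 6 libraries correlated best with the library of their own number. In the other comparisons taken as paired, 6 of 6 did.

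Named members were those past the threshold, the 3 largest differences in each direction against scrambled RNA, the 5 highest and 5 lowest in mean TPM and in spread, paralog pairs and members of known roles outside the ribosome or in disease, with the 5 non-members most like the family. Others were named after their values were seen. The members and lists were chosen with earlier results of these data known. Alternatives were a replicate block, other filters, pseudocounts, scalings and a length correction, and fits without single libraries. Positions and transcript classes come from GENCODE 29, which held 829 of 933 member transcripts, and sequences from RefSeq GRCh38.p14.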

Additional observations from a re-analysis of the deposited data

Results flagged for a closer look

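Between miR-126 and miR-150, 2 of the members were picked out because the effects of these mimics differed by a direct test. For RPL21, the difference miR-126 minus miR-150 was -0.65 on the log2 scale (adjusted p = 0.0413, limma). For RPL7L1 it was 0.65 (adjusted p = 0.0466). RPL21 had 578, 480.4 and 596 TPM with miR-126, against 795, 734 and 1109 TPM with miR-150, and RPL7L1 had 115, 125 and 115 TPM with miR-126, against 85.0, 86.7 and 57.9 TPM with miR-150. Neither passed without the libraries numbered 3 of all groups (adjusted p = 0.1001 and 0.133), and library 4 of miR-150, which favours short transcripts, held the highest RPL21 and the lowest RPL7L1 value of its group. With the length trend removed from each library, the differences were -0.68 (adjusted p = 0.0104) and 0.34 (adjusted p = 0.0210).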

How the results depend on the processing

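The number of ribosomal protein genes past the threshold was 1, 1 and 1 for miR-126, miR-143 and miR-150 against scrambled RNA, and 0, 2 and 0 for miR-126 against miR-143, miR-126 against miR-150 and miR-143 against miR-150. With the replicate number as a block it was 6, 5, 9, 0, 27 and 22 in the same order, against 17.0%, 12.9%, 12.3%, 11%, 18.9% and 9.75% of all genes called, of which the 5 and 9 come from comparisons whose libraries share a number without being paired by the check. In each of these, 2 of 6 libraries correlated best with the library of their own number, a hint from the data and not from the design. Without the libraries numbered 4 of miR-143 and miR-150 it was 5 and 2 for miR-126 and miR-143 against scrambled RNA (13.3% and 5.14% of all genes), and with the block as well 9, 9, 5, 3, 13 and 19 (31.9%, 16.7%, 12.8%, 15.1%, 17.9% and 10.9%). With no filter it was 0 for miR-126 and miR-143 against scrambled RNA (2.22% and 1.51% of all genes) and 0 between miR-126 and miR-150 (1.66%). With each library centred on its median gene it was 0, 0 and 2 against scrambled RNA (6.55%, 4.36% and 4.23% of all genes) and 1 between miR-126 and miR-150 (4.02%). Quantile normalization gave 4, 4 and 2 against scrambled RNA (7.48%, 5.56% and 4.89% of all genes), 1 between miR-126 and miR-143 (3.58%) and 2 between miR-143 and miR-150 (2.95%). Rescaling to the non-members gave 0 and 0 for miR-126 and miR-143 against scrambled RNA (5.97% and 4.06% of all genes) and 1 between miR-126 and miR-150 (3.77%). Removing the length trend gave 5 for miR-126 and 2 for miR-150 against scrambled RNA (11% and 6.77% of all genes), 14 between miR-126 and miR-150 (7%) and 5 between miR-143 and miR-150 (4.77%). Fitting only the libraries compared gave 3, 0 and 0 against scrambled RNA (12.2%, 1.93% and 0.415% of all genes) and 0 between miR-126 and miR-150 (0.138%). Without the libraries numbered 3 it was 0 for miR-143 and miR-150 against scrambled RNA (1.59% and 2.03% of all genes) and 0 between miR-126 and miR-150 (2.17%). Rescaling to the members' summed TPM gave 2 between miR-143 and miR-150 (3.31% of all genes). The cause was not tested for any of these. Leaving out 1 library at a time gave 0 to 2, 0 to 1 and 0 to 1 against scrambled RNA. The shares of all genes called there were 1.56% to 9.93%, 1.01% to 7.08% and 0.909% to 4.02%. For miR-126 against miR-143 it gave 0 throughout, against 0.56% to 5.85% of all genes. It gave 0 to 8 for miR-126 against miR-150 (0.851% to 5.21%) and 0 to 1 for miR-143 against miR-150 (0.924% to 2.57%). The fit without the libraries numbered 3, the block without libraries 4 and the rescaling to the members were chosen after seeing the data.

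For 21 member values (members past the threshold, those past it with the block for miR-126 against scrambled RNA, and the 3 highest and lowest against scrambled RNA) 0 turned direction under any alternative. Values nearer to 0 did: of 13 members named for other roles, 8, 5 and 4 turned under at least 1 alternative with miR-126, miR-143 and miR-150 against scrambled RNA. The 21 values were picked in these same data for passing or for being highest or lowest. Many alternatives also leave a log2 fold change unchanged by design, so the 0 gives little check on direction. The median over all genes for miR-150 against scrambled RNA was -0.11, 0.02 with each library centred on its median gene and -0.34 on the members' summed TPM. The depth behind the TPM is unknown and 3 libraries a group limit the precision.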
